A study of Mus musculus with 9 samples.

Results

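The fatty acid oxidation and peroxisome genes described here are 34 mouse genes named in a fixed list, from the enzymes that activate fatty acids to the receptor that brings enzymes into peroxisomes. All 34 of the 34 listed genes were found by symbol among the 12003 genes measured. The study examined alveolar macrophages, which live in the air spaces of the lung, after loss of Vhl. The VHL protein recruits hypoxia-inducible factor (HIF) alpha subunits to a ubiquitin ligase when oxygen is present, and so leads to their breakdown. Cells were taken by bronchoalveolar lavage from untreated mice aged 8 to 12 weeks, matched for sex and on a C57BL/6 background, and were enriched with magnetic beads against CD11c. Each library is poly(A) RNA from a pool of 5 to 7 mice, and 3 pools were sequenced for each of 3 genotypes. Floxed controls are Vhl(flox/flox) / CD11c (+/+) and carry loxP sites at both Vhl alleles but no Cre recombinase. Cre controls are Vhl(+/+) / CD11c (cre/+) with unmodified Vhl alleles and Cre driven by the CD11c promoter. Vhl knockouts are Vhl(flox/flox) / CD11c (cre/+). CD11c is also made by dendritic cells, so Cre is not limited to macrophages, and pooling hides the differences between single mice.

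Fatty acids are first joined to coenzyme A, then carried into mitochondria as carnitine esters and shortened there in repeated cycles of dehydrogenation, hydration, dehydrogenation and thiolysis. Electrons from the first step pass through a flavoprotein and its oxidoreductase to ubiquinone. Peroxisomes run a parallel set of reactions on very long, branched and other chains that mitochondria handle poorly, and import their enzymes from the cytosol through peroxin proteins. Alveolar macrophages clear surfactant lipid, and HIF is known to alter lipid storage and oxidation in several cell types.

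Values are normalized reads, which are counts scaled to library size with a normalization factor and without correction for gene length. They are given for the libraries in the order of their numbers, or as mean ± SD with n = 3 pools per genotype and n = 6 for both controls together. Each library held 18201116 to 25861174 reads in the table. Log2 fold changes with their standard error (SE) are on the log2(value + 1) scale, which understates the change of low genes. A gene was called when its limma p-value, adjusted over all 12003 genes, was under 0.05. Vhl itself was at 14.95 to 21.04 in floxed controls, 21.9 to 25.3 in Cre controls and 2.02 to 2.52 in knockouts (log2 fold change against both controls -2.75, limma adjusted p = 6.06e-08).

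The cells carried high levels of alveolar macrophage markers, with the chitinase-like gene Chil3 at 17870 ± 1538 normalized reads in controls and 30310 ± 6785 in knockouts. Of 14 such markers, 4 were called higher (Chil3, Marco, Fabp4 and Pparg) and 3 lower (Siglecf, Krt79 and Car4) in knockouts. Marker counts here stand beside 19.7% of all genes called higher and 20.2% called lower. All 14 dendritic cell markers were called lower, and their summed level was 139 to 282 in floxed controls, 161 to 345 in Cre controls and 62.1 to 73.1 in knockouts, with no marker at 0 in any library. Monocyte and interstitial macrophage markers (2 higher and 5 lower of 11, summed 213 to 329 in controls and 261 to 283 in knockouts) and lung epithelium markers (1 higher and 3 lower of 9, summed 219 to 456 and 321 to 374) moved in part. Most of the lung epithelium sum in knockouts came from Cdh1, the marker called higher (log2 fold change 1.18). Cdh1 was at 94.54 to 150.1 in controls and 255.1 to 276.8 in knockouts. Every other measured lung epithelium marker had a negative log2 fold change, from -1.34 (Epcam) to -0.20 (Foxj1), so the overlapping sums do not describe them. None of 5 neutrophil or 2 lymphocyte markers was called. Summed neutrophil markers were highest in library 1 of each genotype, at 580 against 142 to 147 in floxed controls, 263 against 49.3 to 61.8 in Cre controls and 293 against 62.4 to 69.6 in knockouts. Counts of members called against both controls are therefore also given without library 1 of every genotype. In bulk RNA, fewer cells of a type and less RNA per cell cannot be told apart, and the part of these other cells in the results below was not tested.

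Promoters are shown first for the 3 members that rose most against both controls, Acsl3, Scp2 and Ehhadh, and for Echs1, one of the members that fell most. Each is the RefSeq window of 300 bases on GRCm38.p6, from 250 before to 50 after the gene's start, written 5′ to 3′ on the gene's strand. Capitals mark the core of the hypoxia response element, ACGTG or GCGTG on either strand, so that CACGT and CACGC count too.
Acsl3, chr1:78657575-78657874, plus strand: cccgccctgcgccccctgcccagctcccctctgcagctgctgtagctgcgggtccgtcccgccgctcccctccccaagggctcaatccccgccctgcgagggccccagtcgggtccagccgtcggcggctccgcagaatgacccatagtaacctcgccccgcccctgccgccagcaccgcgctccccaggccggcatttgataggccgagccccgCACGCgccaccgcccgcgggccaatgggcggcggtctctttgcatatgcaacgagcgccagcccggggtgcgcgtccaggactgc
Scp2, chr4:108118498-108118797, minus strand: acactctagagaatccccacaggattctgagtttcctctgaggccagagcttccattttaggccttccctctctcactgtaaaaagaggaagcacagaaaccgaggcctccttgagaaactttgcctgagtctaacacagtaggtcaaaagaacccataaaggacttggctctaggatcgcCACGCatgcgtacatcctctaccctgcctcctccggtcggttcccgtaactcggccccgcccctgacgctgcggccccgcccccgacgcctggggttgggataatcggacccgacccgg
Ehhadh, chr16:21787785-21788084, minus strand: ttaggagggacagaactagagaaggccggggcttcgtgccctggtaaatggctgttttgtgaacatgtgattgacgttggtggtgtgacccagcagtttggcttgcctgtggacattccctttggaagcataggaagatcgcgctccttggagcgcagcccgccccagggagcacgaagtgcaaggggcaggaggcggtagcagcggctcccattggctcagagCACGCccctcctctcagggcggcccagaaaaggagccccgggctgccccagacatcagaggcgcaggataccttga
Echs1, chr7:140116372-140116671, minus strand: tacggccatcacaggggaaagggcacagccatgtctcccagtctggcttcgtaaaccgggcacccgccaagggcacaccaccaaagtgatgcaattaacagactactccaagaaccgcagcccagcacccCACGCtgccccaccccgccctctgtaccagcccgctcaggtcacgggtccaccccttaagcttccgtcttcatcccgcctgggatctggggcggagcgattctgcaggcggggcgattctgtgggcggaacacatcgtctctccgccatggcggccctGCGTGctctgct

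The core began at base -35 from the start in Acsl3, at -69 in Scp2, at -26 in Ehhadh and at -120 and 39 in Echs1. The Scp2 window lies inside the longer GENCODE gene model. Of the 34 members, 27 had a window (not Cpt1b, Crat, Acad9, Acaa2, Acat1, Decr1 or Hsd17b4), and 18 of these held a core in at least 1 window. The core was present for 8 of 9 members with a window that were called higher, 3 of 4 called lower and 7 of 14 not called. Such a short motif is common: it was in 43.8% of all promoter windows, in 61.9% of windows of genes in the table and in 58.1% of the members' windows. These shares are per window, while the counts above are per gene. Counted per window, the core was in 8 of 11 windows of members called higher (72.7%), 3 of 4 called lower (75%) and 7 of 16 not called (43.8%). Presence of the letters is a description of the window, not evidence of binding. A peroxisome proliferator response element of the direct repeat 1 type was found in 0 member windows and in 0.409% of windows of genes in the table.

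Another pair of sequences bears on how thiolase reads are shared between genes. Acaa1a, a member, and Acaa1b, which is not, encode near-identical peroxisomal thiolases on chromosome 9. Their longest open reading frames in the GENCODE transcripts are 1275 bases each and differ at 44 bases (96.5% identity), with an identical run of 327 bases. The stretch from base 433 to 552 of the reading frames, in which 14 bases differ, is shown with those bases in capitals.
Acaa1a: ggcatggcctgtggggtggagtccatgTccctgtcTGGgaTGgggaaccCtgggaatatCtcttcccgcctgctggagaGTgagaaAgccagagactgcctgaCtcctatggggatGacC
Acaa1b: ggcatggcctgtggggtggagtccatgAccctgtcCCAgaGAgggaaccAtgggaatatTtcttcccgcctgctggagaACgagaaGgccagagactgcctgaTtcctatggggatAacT

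Of the 61-base windows of all Acaa1a transcripts, the length of the reads, 10.8% also occur in Acaa1b, and 27.1% of those of Acaa1b occur in Acaa1a. The counts of this pair are therefore uncertain where reads were divided between them. Shared windows were also frequent in Etfb (41.9% with Gm45233), Pex14 (24.4% with Gm17029) and Hadhb (17.4% with Gm13910), genes outside the table. Acsl5, Crat, Echs1 and Etfdh overlap a measured gene on the opposite strand over 1.10% to 8.31% of their exon bases.

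Loss of Vhl came with changes in both directions in these genes, and most changes were small. Against both controls, 12 of 34 members rose (35.3%) and 6 fell (17.6%), while 19.7% of all 12003 genes were called higher and 20.2% lower (39.8% in either direction). The other 16 members were not called. Of the 18 called members, 14 changed by less than 0.5 on the log2 scale, and 2 passed 1, the lipid-droplet acyl-CoA synthetase gene Acsl3 and the sterol carrier and thiolase gene Scp2. The median log2 fold change was 0.05 over the members and -0.00 over all genes, and the median size regardless of sign was 0.22 and 0.20. Without library 1 of every genotype, an alternative added after the values had been seen, 9 members were called higher and 5 lower.

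**Figure D1:**
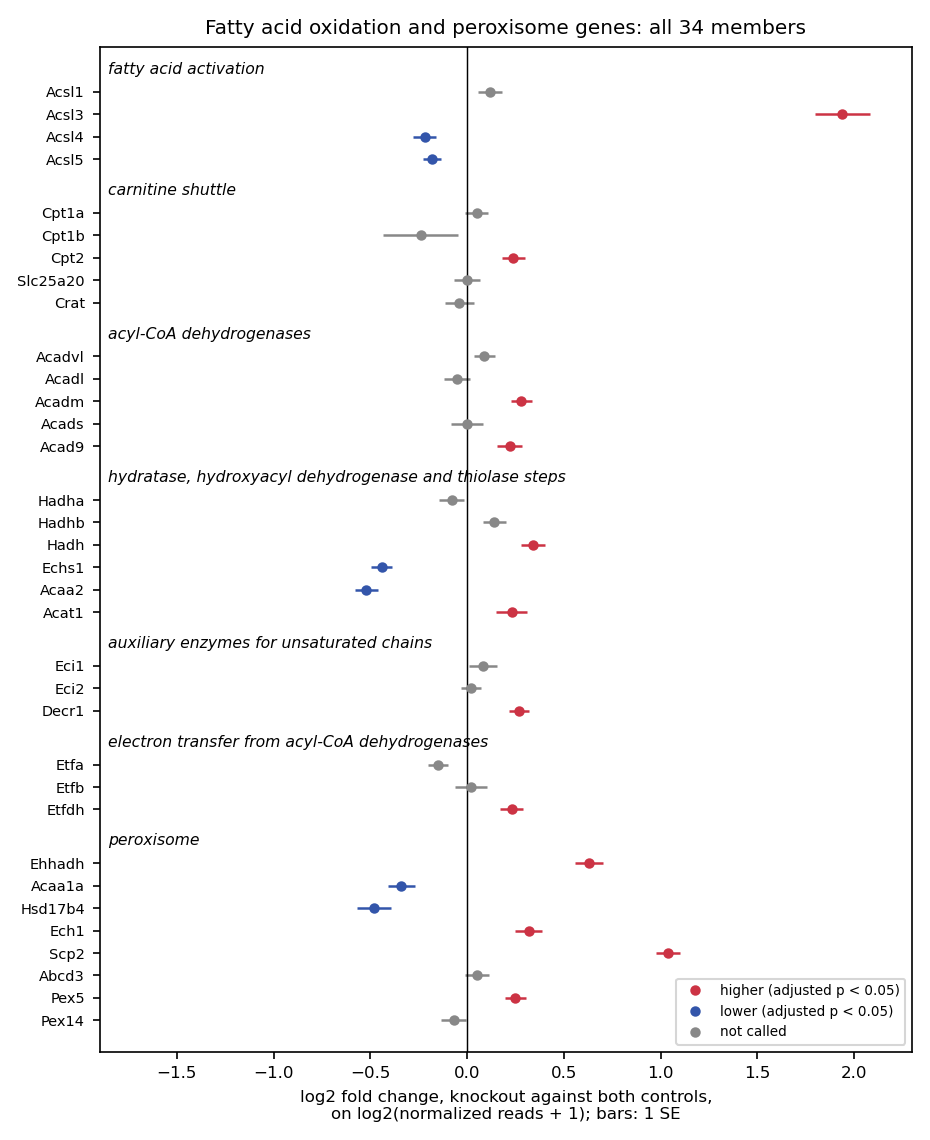
Log2 fold change of the 34 members in Vhl knockouts against both controls, on the log2(normalized reads + 1) scale (x axis), by role. Bars are 1 SE of the limma fit, red points were called higher, blue points lower and grey points were not called. Acsl3 at 1.94 and Scp2 at 1.04 lie far to the right of the other members, which lie between -0.52 and 0.63.

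Set against each control group, the counts differed somewhat. Against floxed controls, 12 members rose (17.5% of all genes were called higher) and 3 fell (16.8% lower). Against Cre controls, 9 rose (16.3% of all genes) and 7 fell (17.7%). The first count of falls became 5 without floxed control 3, and the second count of rises became 4 without Cre control 2, 4 without Vhl knockout 1 and 3 without Vhl knockout 3. Without library 1 of every genotype, the calls of Acad9, Hadhb, Etfdh and Pex5 against floxed controls were lost. In the same fit, Acsl5, Acad9, Decr1, Etfa and Pex5 lost their calls against Cre controls, and Acat1 was called higher against them. Members called higher against floxed and also against Cre controls were 9, Acsl3, Acadm, Acad9, Hadh, Decr1, Ehhadh, Ech1, Scp2 and Pex5 (13.7% of all genes), and members called lower against each were 3, Echs1, Acaa2 and Acaa1a (13.6%). Of these, 6 kept both calls under every alternative run on the single genes (Acsl3, Ehhadh, Scp2, Echs1, Acaa2 and Acaa1a). The sum of Acaa1a with Acaa1b, given below, is not among those alternatives and was called higher. Acadm, Acad9, Hadh, Decr1, Ech1 and Pex5 lost at least 1 call, mostly when 1 library was left out. Acad9 lost its call under 12 of 18 alternatives against floxed controls and 11 of 18 against Cre controls. Among these were DESeq2 against floxed and Cre controls (DESeq2 adjusted p = 0.0509 and 0.0523) and edgeR against Cre controls (edgeR adjusted p = 0.053). In 11 members all 3 knockout libraries lay above all 6 controls (19.3% of all genes), and in 6 they lay below (18.5%). The comparisons share the knockout libraries, and those with both controls share the control libraries too.

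**Figure D2:**
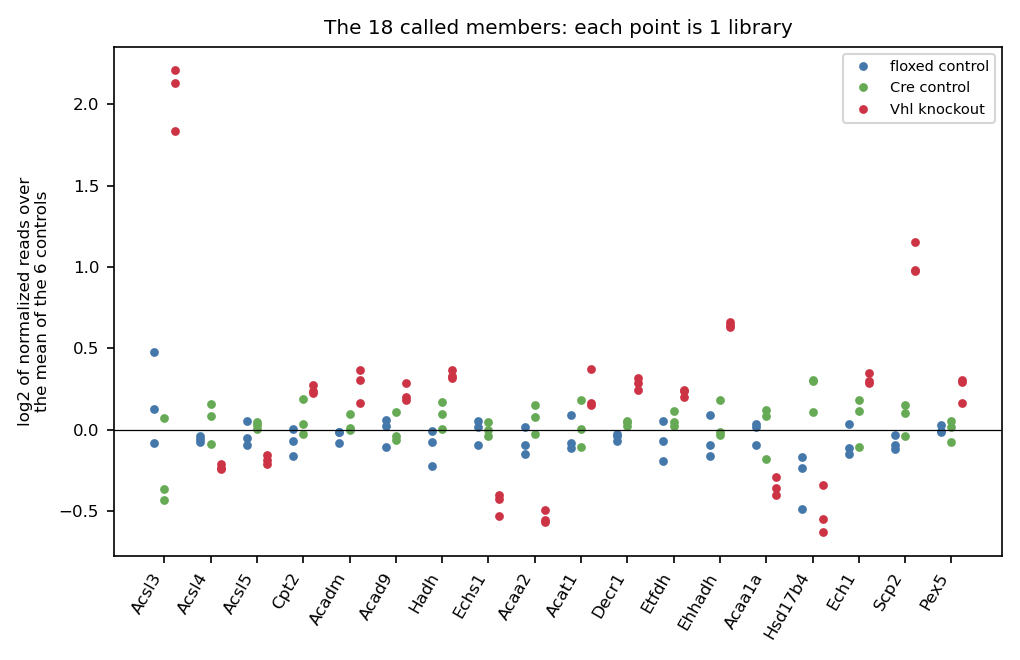
Each point is 1 library, as the log2 of its normalized reads over the mean of the 6 controls (y axis), for the 18 members called against both controls (x axis). Knockout points overlap control points in Acat1 and Hsd17b4 and stand clear of all control points in the other members.

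Summed over all members, the level was 3487 to 4099 normalized reads in controls and 3993 to 4176 in knockouts, and these ranges overlapped. The 26 mitochondrial and activation members summed to 2504 to 2860 in controls and 2686 to 2762 in knockouts. The 8 peroxisome members summed to 969.5 to 1263 in controls and 1305 to 1414 in knockouts, without overlap. Leaving Scp2 out of that sum, the other 7 peroxisome members came to 714 to 952 in controls and 758 to 795 in knockouts, and the ranges overlapped. Of the peroxisome members 4 rose and 2 fell, and of the others 8 rose and 4 fell.

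Among the 4 fatty acid activation genes, 1 rose and 2 fell. Acsl3 (chromosome 1, 78657825 to 78707743) encodes an acyl-CoA synthetase of the endoplasmic reticulum and lipid droplets. It was at 9.78, 7.68 and 6.64 normalized reads in floxed controls, 5.46, 7.38 and 5.20 in Cre controls and 32.5, 25.01 and 30.7 in knockouts. Every knockout library exceeded every control by a wide margin, and the knockout mean was 4.19 times the control mean (log2 fold change 1.94, SE 0.141, limma adjusted p = 4.14e-06). Its change was 1.76 against floxed controls (limma adjusted p = 2.94e-05) and 2.12 against Cre controls (7.66e-06). Acsl3 shares 5.60% of its exon bases with Utp14b, a measured gene on the same strand with a mean of 3.62, so part of its reads could be assigned either way.

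The other synthetases changed by far less. Acsl4, which prefers arachidonate and other polyunsaturated chains, was at 80.7, 81.6 and 79.7 in floxed controls, 78.8, 88.8 and 93.6 in Cre controls and 71.0, 71.3 and 72.6 in knockouts (log2 fold change -0.22, SE 0.0570, limma adjusted p = 0.0113). Its knockout libraries were closely grouped and all lay below the lowest control. Acsl5, a synthetase of mitochondria and endoplasmic reticulum, fell by 0.18 on the log2 scale, from 196 ± 7.83 to 173 ± 3.47 (limma adjusted p = 0.0119), again without overlap. This call was lost without Vhl knockout 3 and without library 1 of every genotype. Both falls were called against Cre controls and not against floxed controls (limma adjusted p = 0.0728 for Acsl4 and 0.0541 for Acsl5). Acsl1, the synthetase best known for supplying long chains to mitochondrial oxidation, was at 119 ± 6.97 in controls and 130.2 ± 8.39 in knockouts and was not called (log2 fold change 0.12, SE 0.0615, limma adjusted p = 0.137).

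In the carnitine shuttle, 1 of 5 genes rose and none fell. Cpt2, which reforms acyl-CoA at the inner mitochondrial membrane, was at 46.3, 52.0 and 49.3 in floxed controls, 52.9, 50.9 and 59.0 in Cre controls and 60.4, 62.6 and 61.0 in knockouts. Its knockout libraries lay above all controls, with Cre control 3 close below them (log2 fold change 0.24, SE 0.0609, limma adjusted p = 0.00965). Its rise was 0.31 against floxed controls (limma adjusted p = 0.00670), while 0.18 against Cre controls was not called (0.0797). Cpt1a, the rate-controlling enzyme of the shuttle and the most read member of this group, was at 513 ± 29.3 in controls and 529.5 ± 16.97 in knockouts. Its log2 fold change of 0.05 (SE 0.0599, limma adjusted p = 0.575) was within the spread between pools. Cpt1b, the muscle isoform, was near the lowest level of the table, at 1.13 to 3.03 in controls and at most 1.60 in knockouts, and 77.9% of its windows also occur in the annotated gene Gm44502, which is not among the genes of the table. The carnitine-acylcarnitine carrier Slc25a20 (log2 fold change -0.00, SE 0.0656) and the carnitine acetyltransferase Crat (-0.04, SE 0.0746) were not called.

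The acyl-CoA dehydrogenases catalyse the first step of each cycle, and 2 of 5 rose. Acadm, for medium chains, was at 81.9, 82.0 and 78.2 in floxed controls, 88.4, 82.7 and 83.3 in Cre controls and 103, 92.9 and 107 in knockouts. Each of its knockout libraries was above all controls (log2 fold change 0.28, SE 0.0551, limma adjusted p = 0.00282). Acad9, a family member also needed to assemble respiratory complex I, went from 31.3 ± 1.77 to 36.6 ± 1.40 (log2 fold change 0.22, SE 0.0636, limma adjusted p = 0.0208). That call was lost without Vhl knockout 1, without Vhl knockout 2, without library 1 of every genotype and without the normalization factor. The enzymes for very long, long and short chains were not called: Acadvl had a log2 fold change of 0.09 (SE 0.0545), Acadl -0.05 (SE 0.0667) and Acads -0.00 (SE 0.0818). Of the exon bases of Acadvl, 42.9% overlap the measured gene Dvl2 on the opposite strand, and without a stated strand setting their reads cannot be told apart.

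The hydration, second dehydrogenation and thiolase steps moved in opposite directions, with 2 of 6 genes higher and 2 lower. Echs1 (chromosome 7, 140105710 to 140116476), the short-chain enoyl-CoA hydratase, was at 68.4, 70.3 and 63.3 in floxed controls, 67.6, 65.9 and 70.0 in Cre controls and 50.4, 51.2 and 46.9 in knockouts. The control groups overlapped and every knockout library was lower (log2 fold change -0.44, SE 0.0541, limma adjusted p = 0.000146). Acaa2 (chromosome 18, 74779197 to 74806208), the mitochondrial 3-ketoacyl-CoA thiolase that ends the cycle, was at 70.9, 76.6 and 68.1 in floxed controls, 84.0, 74.3 and 79.8 in Cre controls and 51.6, 51.2 and 53.9 in knockouts. It also fell without overlap (log2 fold change -0.52, SE 0.0576, limma adjusted p = 7.25e-05), to 69.0% of the control mean.

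Hadh (chromosome 3, 131233419 to 131272101), the hydroxyacyl-CoA dehydrogenase for shorter chains, which acts between Echs1 and Acaa2, rose. It was at 54.2, 51.7 and 46.6 in floxed controls, 61.2, 54.7 and 58.3 in Cre controls and 68.4, 67.8 and 70.1 in knockouts (log2 fold change 0.34, SE 0.0604, limma adjusted p = 0.00157). Knockout libraries lay above all controls, and Cre controls lay above floxed controls (0.19, SE 0.0697, limma adjusted p = 0.587). Acat1, the acetoacetyl-CoA thiolase of ketone body and isoleucine metabolism, was at 80.0 to 98.5 in controls and 96.9, 96.3 and 112 in knockouts. Its groups overlapped, and its call was close to the threshold (log2 fold change 0.23, SE 0.0801, limma adjusted p = 0.0430), lost under 9 of 17 alternatives, among them leaving out any knockout library. Hadha and Hadhb, the subunits of the trifunctional protein for long chains, were not called against both controls, with log2 fold changes of -0.08 (SE 0.0653) and 0.14 (SE 0.0602, limma adjusted p = 0.0824). Against floxed controls Hadhb rose by 0.24 (limma adjusted p = 0.0219), while against Cre controls it stood at 0.05 (0.649).

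**Figure D3:**
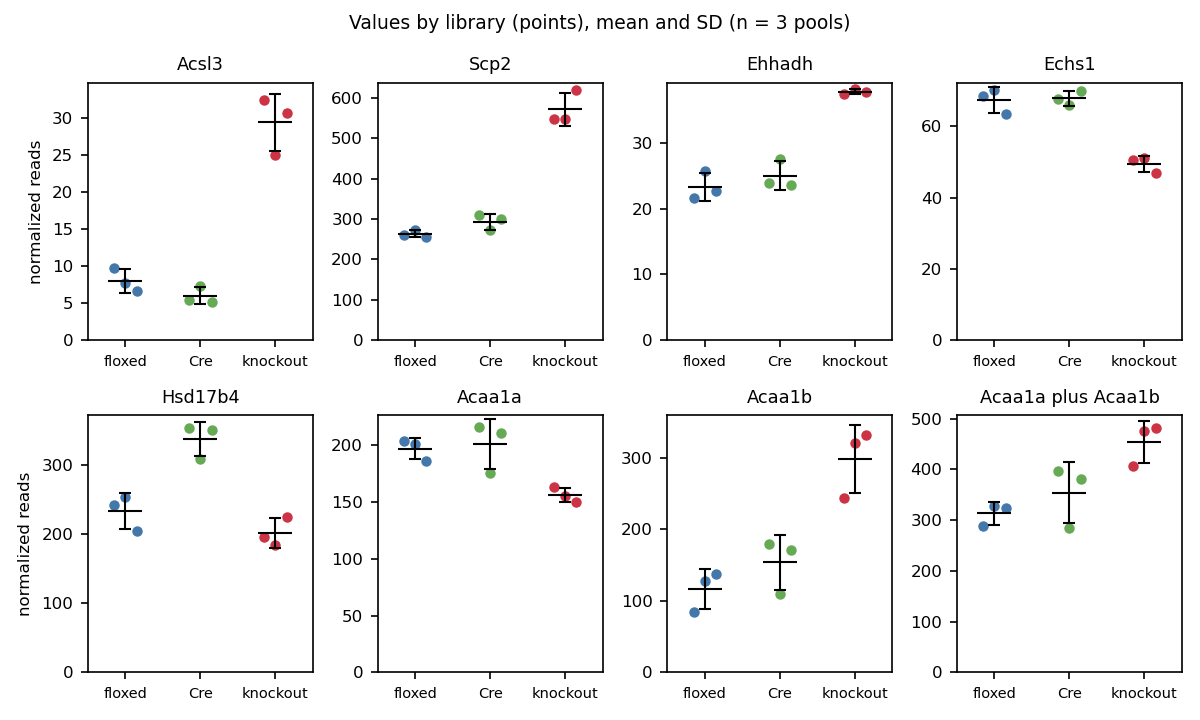
Normalized reads by library (points) for members the results turn on and for Acaa1b, with the mean and SD of the 3 pools of each genotype (lines and bars). All 3 knockouts stand above both controls for Acsl3, Scp2, Ehhadh, Acaa1b and the thiolase sum and below them for Echs1 and Acaa1a, while for Hsd17b4 the Cre controls stand above the others.

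Of the auxiliary enzymes for unsaturated chains, Decr1 rose and the isomerases Eci1 and Eci2 were not called. Decr1, the mitochondrial dienoyl-CoA reductase, was at 23.5, 22.8 and 23.2 in floxed controls, 24.7, 24.3 and 24.8 in Cre controls and 29.1, 28.3 and 29.8 in knockouts. Spread within each genotype was small, and the knockouts stood above both controls (log2 fold change 0.27, SE 0.0519, limma adjusted p = 0.00215). Eci1 went from 20.1 ± 1.69 to 21.4 ± 0.750 and Eci2 from 93.7 ± 4.78 to 95.2 ± 2.33.

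Electron transfer genes showed 1 rise among 3. Etfdh, the oxidoreductase that hands electrons to ubiquinone, was at 44.4, 52.6 and 48.3 in floxed controls, 51.4, 52.4 and 54.8 in Cre controls and 59.97, 58.3 and 59.8 in knockouts (log2 fold change 0.23, SE 0.0593, limma adjusted p = 0.0120). Knockouts lay above all controls, and the rise was called against floxed controls (limma adjusted p = 0.00857) but not Cre controls (0.0905). Without library 1 of every genotype the calls of Cpt2 and Etfdh against both controls were lost. The flavoprotein subunit Etfa was at 114 ± 6.46 in controls and 103 ± 1.51 in knockouts, with every knockout below every control, yet was not called (log2 fold change -0.15, SE 0.0528, limma adjusted p = 0.0513). Its partner Etfb was at 105 ± 12.7 and 106 ± 1.24.

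Peroxisome genes included a large rise. Scp2 (chromosome 4, 108043839 to 108144998) encodes a sterol carrier protein and, from a longer transcript, a thiolase for branched chains. It was at 261, 273 and 256 in floxed controls, 310.0, 272 and 299.5 in Cre controls and 549, 548 and 619 in knockouts. The knockouts stood far above all controls, at 2.05 times their mean (log2 fold change 1.04, SE 0.0621, limma adjusted p = 9.77e-07), with 1.11 against floxed and 0.96 against Cre controls. Reads of both products are summed in the table, and which of them rose was not resolved. Of the 61-base windows of Scp2, 27.8% also occur in Scp2-ps2, which is not among the genes of the table.

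The bifunctional enzymes, which perform the middle steps of the peroxisomal cycle with opposite stereochemistry, went in opposite directions against both controls. Ehhadh (chromosome 16, 21761287 to 21787807), the L-bifunctional enzyme, was at 21.7, 25.7 and 22.7 in floxed controls, 23.99, 27.5 and 23.6 in Cre controls and 37.5, 38.3 and 37.8 in knockouts. The knockouts were tightly grouped and above all controls (log2 fold change 0.63, SE 0.0730, limma adjusted p = 0.000105). Hsd17b4 (chromosome 18, 50128201 to 50196269), the D-bifunctional enzyme that handles branched and very long chains, was at 242, 254 and 204 in floxed controls, 353, 308 and 350.4 in Cre controls and 195, 184 and 225 in knockouts. Here the knockouts overlapped floxed controls and lay below Cre controls. The log2 fold change was -0.48 against both controls (SE 0.0880, limma adjusted p = 0.00189) and -0.74 against Cre controls (0.000397), while -0.21 against floxed controls was not called (0.139). Cre controls exceeded floxed controls by 0.53 (SE 0.102), which limma did not call over all genes (adjusted p = 0.150) and DESeq2 did (0.52, adjusted p = 0.000308). Without floxed control 3 the fall against floxed controls was -0.30 and was called (0.0374). What sets these control groups apart was not tested.

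The thiolase genes of the peroxisome differed in direction. Acaa1a (chromosome 9, 119339676 to 119350299) was at 203, 201 and 186 in floxed controls, 216, 176 and 210.5 in Cre controls and 163, 155 and 150.3 in knockouts, below all controls (log2 fold change -0.34, SE 0.0703, limma adjusted p = 0.00336). Acaa1b, the near copy shown above, was at 84.4, 127 and 138 in floxed controls, 180.0, 109.5 and 171 in Cre controls and 244, 320.2 and 331 in knockouts, above all controls (1.17, SE 0.193, limma adjusted p = 0.000951). Because reads may be divided between them, their sum was tested as an alternative added after the values had been seen. The sum was 334 ± 46.5 in controls and 455 ± 41.8 in knockouts (log2 fold change 0.45, SE 0.107, limma adjusted p = 0.00759), so the fall of Acaa1a alone does not describe the pair. Also, 6.57% of the exon bases of Acaa1a overlap Myd88 on the opposite strand, a measured gene with a mean of 114.

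Among the remaining peroxisome members, Ech1, a dienoyl-CoA isomerase found in peroxisomes and mitochondria, was at 193, 214 and 187 in floxed controls, 236, 193 and 225 in Cre controls and 265, 254 and 256 in knockouts (log2 fold change 0.32, SE 0.0697, limma adjusted p = 0.00515). Every knockout library exceeded the highest control. Pex5, the receptor that recognises the carboxy-terminal import signal of peroxisomal enzymes, was at 35.8, 35.9 and 36.8, then 37.6, 34.3 and 36.5, and in knockouts 44.3, 40.5 and 44.7. It rose by the same amount, 0.25, against floxed controls and against Cre controls (limma adjusted p = 0.0143 and 0.0135). Its docking partner Pex14, at 37.4 ± 2.95 and 35.6 ± 1.41, and the acyl-CoA transporter Abcd3, at 46.5 ± 3.77 and 48.0 ± 1.79, were not called (log2 fold changes of -0.07, SE 0.0630, and 0.05, SE 0.0618).

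Levels can be compared between genes only per length, here as normalized reads per kilobase of the union of annotated exons, which treats every annotated exon as used. On that scale, Ech1 (91.0 ± 8.67), Etfb (90.0 ± 10.9), Hsd17b4 (83.8 ± 18) and Scp2 (80.1 ± 6.201) led in controls, and their spreads overlap, so their order is not resolved. Cpt1a (67.2 ± 3.83) and Etfa (62.3 ± 3.52) came next. In knockouts Scp2 stood first at 164 ± 11.7, above Ech1 at 113 ± 2.59 and Etfb at 90.6 ± 1.07, and Hsd17b4 was at rank 5 with 59.2 ± 6.22. Acsl3 was at rank 33 of 34 in controls, with 1.61 ± 0.385, and at rank 30 in knockouts, with 6.75 ± 0.896, so its large relative change left it among the lowest members. Cpt1b was last in both, at 0.534 ± 0.201 and 0.396 ± 0.0852.

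Between Cre controls and floxed controls, limma called 0 members, and 0.167% of all genes in either direction. At an unadjusted p under 0.05, limma counted 4 of 34 members, Hadhb, Hadh and Hsd17b4 higher in Cre controls and Acsl3 lower, beside 8.01% of all genes. EdgeR called 0 members (19 of 12003 genes) and DESeq2 called 1, Hsd17b4 (74 of 12003 genes). Each also had 4 members under an unadjusted p of 0.05, beside 8.05% of all genes in edgeR and 7.69% in DESeq2. The estimate was positive in 31 of 34 members, with a median log2 difference of 0.11 beside 0.01 over all genes, so several rises are smaller when measured from Cre controls.

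Beyond the members, 96 of 114 further pathway genes were measured, and 30 rose (31.2%) while 13 fell (13.5%) against both controls, beside 19.7% of all genes called higher and 20.2% lower. Among 27 measured genes listed as mitochondrial acyl-CoA and carnitine enzymes, 8 rose (29.6%) and 4 fell (14.8%). The list also holds genes that act outside mitochondria, among them a gene of fatty acid synthesis that fell. The acyl-CoA thioesterase genes Acot9 and Acot2, which release free fatty acid from coenzyme A, went from 61.6 ± 2.28 to 104 ± 7.84 (a log2 fold change of 0.75, limma adjusted p = 6.90e-06) and from 22.1 ± 3.04 to 40.1 ± 3.33 (0.84, 6.89e-05). Acadsb, the dehydrogenase for short branched chains, rose from 31.2 ± 0.939 to 45.2 ± 2.63 (0.52, limma adjusted p = 5.15e-05). Slc22a5, the plasma membrane carnitine transporter, rose from 20.9 ± 1.41 to 29.8 ± 0.726 (0.49, limma adjusted p = 0.000228). The acetyl-CoA synthetase Acss1 (0.21) and Hsdl2 (0.09) were not called, though Acss1 was called without Vhl knockout 1 (0.29, limma adjusted p = 0.0419).

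Of 31 measured peroxisomal enzymes and transporters, 11 rose (35.5%, beside 19.7% of all genes) and 4 fell (12.9%, beside 20.2%), or 2 fell without Vhl knockout 1 or without Vhl knockout 2. The transporter genes Abcd2, for very long chains, and Abcd4, which acts in lysosomal cobalamin export, went from 286 ± 12.97 to 463 ± 40.1 (a log2 fold change of 0.69, limma adjusted p = 1.17e-05) and from 19.6 ± 0.961 to 29.6 ± 0.414 (0.57, 6.65e-05). The peroxisomal thioesterase gene Acot4 rose from 5.60 ± 0.539 to 11.5 ± 1.19 (0.92, limma adjusted p = 4.08e-05). Gnpat, which starts ether lipid synthesis, fell from 58.4 ± 1.85 to 43.7 ± 1.65 (-0.41, limma adjusted p = 0.000143). The NADPH-producing Idh1 was at 369.7 ± 33.5 and 374 ± 11.2 and was not called.

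Of 14 measured peroxins, the proteins that build peroxisomes, 3 rose (21.4%) and 2 fell (14.3%), and the 35.7% called in either direction is near the 39.8% of all genes. The falls were 0 without Vhl knockout 3 and 1 without Cre control 1 or 3, floxed control 1 or 2, or Vhl knockout 1 or 2. Pex26 (log2 fold change 0.57, from 5.45 ± 0.542 to 8.63 ± 1.73) and Pex6 (0.36, from 32.8 ± 1.28 to 42.6 ± 3.33) were among those that rose, and both belong to the machinery that recycles Pex5. Pex2 fell by 0.18 (limma adjusted p = 0.0208), a call lost without Vhl knockout 1, Vhl knockout 3 or library 1 of every genotype, while Pex19 and Pex11a were not called. Among 24 measured regulators, 8 rose (33.3%, beside 19.7% of all genes) and 3 fell (12.5%, beside 20.2%), or 5 rose without Vhl knockout 2. Hilpda, a HIF target that inhibits the lipase encoded by Pnpla2, was at 3.70 to 4.45 in controls and 20.98, 23.1 and 27.6 in knockouts (2.28, SE 0.0990, limma adjusted p = 1.15e-07). Pnpla2 itself rose from 151 ± 12.8 to 228 ± 17.9 (0.59, limma adjusted p = 0.000273), and Pparg, a nuclear receptor central to alveolar macrophage identity and lipid handling, from 158 ± 12.0 to 224 ± 21.01 (0.49, 0.000510). Hif1a RNA fell from 151 ± 14.6 to 60.5 ± 2.57 (-1.30, SE 0.0693, limma adjusted p = 4.37e-07). The receptor partner Rxra (0.12) and the kinase subunit Prkaa1 (-0.00) were not called. Ppara, Ppargc1a and Prkaa2 were looked for and are not among the genes measured.

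**Figure D4:**
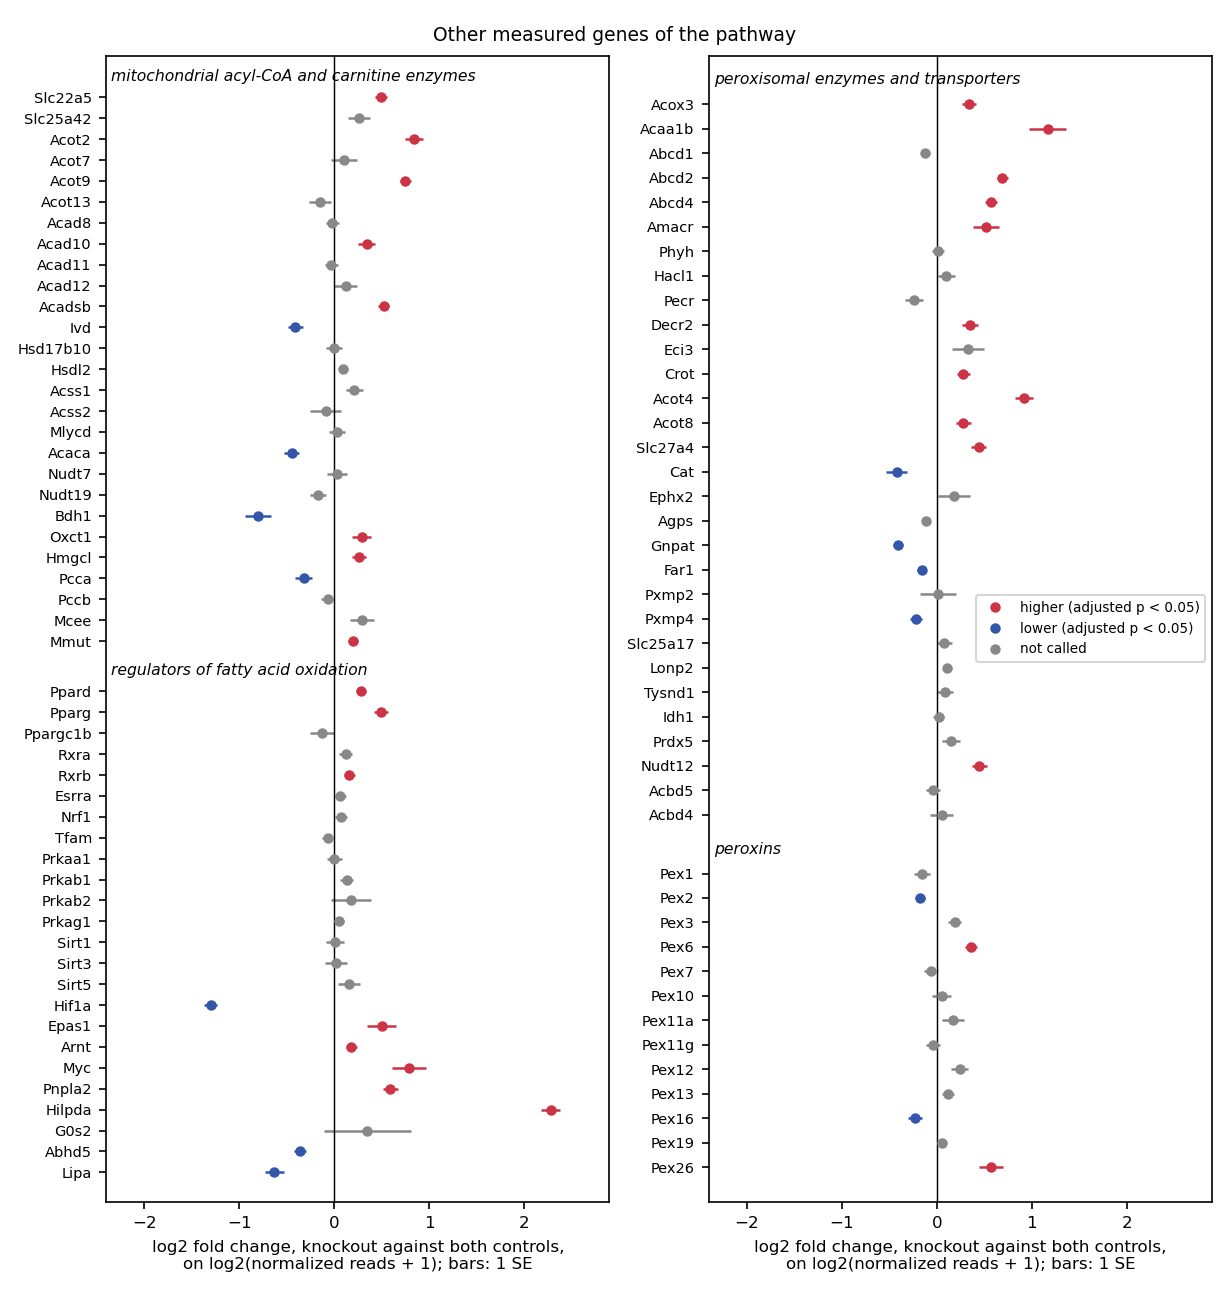
Log2 fold change of other measured pathway genes in Vhl knockouts against both controls, on the log2(normalized reads + 1) scale (x axis), with 1 SE of the limma fit as bars and the same colours for calls. Hilpda at 2.28 and Hif1a at -1.30 are the extremes, and among the peroxisomal genes Acaa1b at 1.17 lies farthest to the right.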

How the data were processed

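Poly(A) RNA of 9 libraries was sequenced as single reads of 61 bases, from RNA with an integrity value over 8, per the labels' protocols. Per the submitters' processing notes, reads went through CASAVA 1.8.2, cutadapt 1.3 and RSEM 1.2.3, on build GRCm38. The strand setting and the later steps were not given in the sources used here. Each value of the signal deposited by the authors is a whole number of reads times 1 factor per library (100% of values within 0.01 read), equal to CPM after a trimmed mean of M values factor. These normalized reads hold no correction for length. Every gene reaches 0.962 in at least 3 libraries. No per-sample column was left unused (0 columns). In each library 1 read is worth 0.0400 to 0.0565, and so 3 reads, the most a count of 0 allows, are 0.120 to 0.170. This covers counting error only.

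Symbols, positions and exons came from GENCODE M21, promoters from RefSeq (GRCm38.p6). A linear model of the genotype means was fitted to log2(value + 1) of all 12003 genes and 9 libraries with limma 3.58.1 (R 4.3.3, moderated, with trend, two-sided, no filter), adjusted by Benjamini-Hochberg. The scripts were tested on simulated data. P-values measure the spread between pools. Alternatives were edgeR 4.0.16 and DESeq2 1.42.0 on the recovered reads, a pseudocount of 0.1, a mean of at least 1, no factor, DESeq2 size factors, the replicate number as a block, only the groups compared, each library left out, and, added after seeing the data, library 1 of every genotype left out and Acaa1a and Acaa1b summed. The members, the pathway lists and the marker lists were chosen with earlier results of these data known. All members may be named. Of each further list, the 4 called genes with the smallest adjusted p and the 2 highest genes that were not called are named, and Acaa1b was added for its likeness to Acaa1a. Some genes of these lists enter the counts but are not reported here. Mmut was matched as Mut. The planned reading of carboxy-terminal import signals was not made, as protein sequences were not used here.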

Additional observations from a re-analysis of the deposited data

How the results depend on the processing

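No call of a member changed direction under any alternative run on the single genes. The sum of Acaa1a and Acaa1b is left out of the counts below. It was called higher against both controls (0.45, limma adjusted p = 0.00759), while Acaa1a alone was called lower (-0.34, limma adjusted p = 0.00336). Against both controls, members called higher ranged from 9 (without library 1 of every genotype) to 12, and lower from 5 to 7, over 17 alternatives. Of the 18 called members, 13 kept their call under all of these (8 higher, 5 lower), and Acsl5, Cpt2, Acad9, Acat1 and Etfdh lost it at least once. Etfa was called lower by DESeq2, without the normalization factor and without floxed control 3, and the other 15 members that were not called stayed so. Against floxed controls, members called lower numbered 7 without the normalization factor against 3, and 3 to 5 with 1 library left out. Against Cre controls, members called higher numbered 3 to 10 with 1 library left out, against 9. Between the controls, members called higher numbered 1 with DESeq2 (Hsd17b4) against 0. Among the further lists, peroxisomal genes called lower numbered 7 without the normalization factor against 4. The cause was not tested, except that leaving out a library leaves fewer samples. Without the factor, the median of all genes shifted from -0.002 to -0.048.

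Replicate numbers did not pair the libraries throughout: 6 of 9 same-numbered pairs correlated over 0.1 (-0.0934 to 0.524), and 4 of 9 libraries correlated best with their own number. The libraries numbered 1 did deviate together, with all 3 pairs of them between 0.202 and 0.524. All 12 pairs of one of them with another number were below 0 (-0.443 to -0.03). The correlations are of deviations from the genotype mean, which sum to 0 within a genotype. These negative values therefore follow in part from the positive ones and are not separate evidence. With the replicate block, 11 members were called higher and 6 lower against both controls. Under the block Acat1 lost its call against both controls (0.23, limma adjusted p = 0.0602) and Acad9 its calls against floxed (0.22, 0.0594) and Cre controls (0.21, 0.0707), while Acsl1 was called higher against floxed controls (0.16, 0.0469). The table holds no gene that is under 0.962 normalized reads in more than 6 of the 9 libraries, and Cpt1b, with values of at most 3.03, was too low for a small change to be seen.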

Other observations

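Ratios of partner genes within a library do not depend on the normalization factor. The following were chosen after the values had been seen and are given as descriptions. Hadhb over Hadha, the beta and alpha subunits of the trifunctional protein, was 0.633 to 0.724 in the 6 controls and 0.766 to 0.802 in the 3 knockouts, although neither gene was called against both controls. Etfdh over Etfa was 0.410 to 0.463 in controls and 0.561 to 0.590 in knockouts. Acaa1b over Acaa1a was 0.415 to 0.833 in controls and 1.498 to 2.205 in knockouts, so that the copy with fewer reads in every control library had more in every knockout library. In all 3 pairs the knockout libraries lay outside the range of the controls. For Etfdh over Etfa and Acaa1b over Acaa1a this follows from the single genes. There the first gene lay above all controls in every knockout library and the second below. Ratios of reads are not ratios of molecules, since the genes differ in length.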
